A study of Mus musculus with 7 samples.

Results

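The genes described here encode the proteins of the cytosolic ribosome and their near relatives, as measured in mouse liver. They were taken as every probe whose annotated symbol starts with Rpl or Rps followed by a digit, without the ribosomal protein S6 kinases (Rps6k), and probes of a gene were averaged. This gave 73 genes from 107 probes, of 16462 named genes on the array. The set held 35 standard proteins of the large subunit and 20 of the small subunit. Another 9 symbols belong to paralogues or name-alikes and 9 to pseudogenes. The liver RNA of 7 mice on a chow diet was hybridised to 2-colour arrays, 1 array per mouse. The groups were 3 mice without C3ar1 (C3ar1-/-), which encodes a receptor of the complement system, and 4 littermates of wild type. Each array set its liver against 1 RNA pool, drawn from the livers of 6 wild-type control animals on the chow diet. The labels name no strain, age, sex, treatment or promoter, and do not say how C3ar1 was deleted.

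A ribosomal protein gene codes for 1 of the proteins that, with ribosomal RNA, build the small and the large subunit, on which all cytosolic and secreted proteins are made. The small subunit decodes the message and the large subunit joins the amino acids, and the proteins are needed in equal numbers. The messages share a start rich in pyrimidines, the terminal oligopyrimidine tract, through which the kinase complex mTORC1 controls their translation, so that protein output in liver can follow feeding with little change of message level. The hepatocyte, which exports most plasma proteins, is rich in ribosomes.

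Every value is the deposited log ratio of a liver to the pool. A value above 0 probably means more message in the mouse, because the titles put the pool before the mouse, and a turned direction would reverse all signs printed. The logarithm was taken as log10, which the labels do not state, and each fold rests on that base. On the array of knockout liver 2 the ratios spread more widely than on the others, with an SD over all probes of 0.0975 against 0.0466 to 0.0676. The number of arrays limits the precision. In bulk liver, fewer cells of a type and less RNA per cell cannot be told apart. The probe of C3ar1 itself gave 0.0042, 0.0337 and 0.0514 in the knockouts and -0.0318 to 0.0264 in the wild types, and it cannot check the labels, since which exons were removed is unknown here. Since every array sets liver against liver, the ratios do not show whether the defining genes of the hepatocyte are present, and the labelled tissue could not be checked by level. The titles number the wild types 1 to 4 and the knockouts 2 to 4, and the labels speak of separate mice.

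The first question was whether the loss of C3ar1 went with a different level of any ribosomal protein message. None of the 73 genes passed the test over all 22212 rows of the array (limma, smallest adjusted p = 0.884), and over all rows 0.0045% were called. At an unadjusted p under 0.05 limma listed 4 of the genes as higher in the knockouts and 0 as lower, or 5.48% of the set. Over all rows 4.55% lay below that level, 1.89% of them higher and 2.66% lower as shares of all rows. The ordinary test without shared variance listed 6 at that level, all higher, and also called 0. It listed 2.11% of all rows as higher and 4.08% in either direction. The differences between genotypes, on the log10 scale and as knockout minus wild type, ran from -0.0581 for Rpl22l1 to 0.0732 for Rpl13a. Their median was 0.0112, beside 0.00558 over all rows, and 67.1% of the genes lay above 0, beside 57.2% of all rows.

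**Figure D1:**
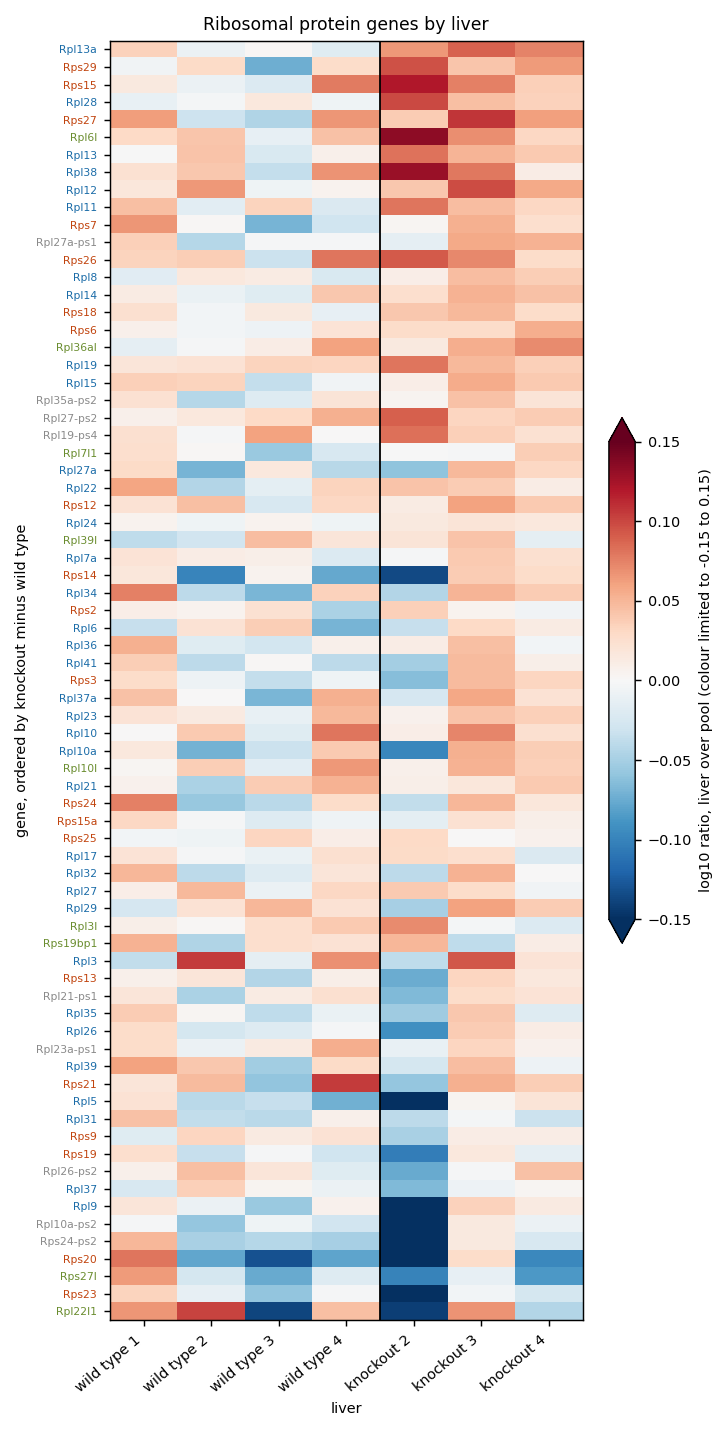
Log10 ratio of each of the 73 genes (rows) in each of the 7 livers (columns), in red above and in blue below the pool, with colours held at -0.15 and 0.15. Gene names are blue for the large subunit, orange for the small subunit, green for paralogues and name-alikes and grey for pseudogene symbols. Knockout 3 is red in 65 of the 73 rows, while knockout 2 holds both the darkest blue and the darkest red cells.

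The precision shows how large a change could have been missed. The 95% interval of the difference reached 0.0654 to either side for the median gene, or 1.16-fold. It was narrowest for Rpl24 (0.0354) and widest for Rps20 (0.158). In 71 of the 73 genes the whole interval lay within a change of 1.5-fold in either direction. The other 2, Rps20 and Rpl22l1, had lower bounds of -0.204 and -0.214.

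**Figure D2:**
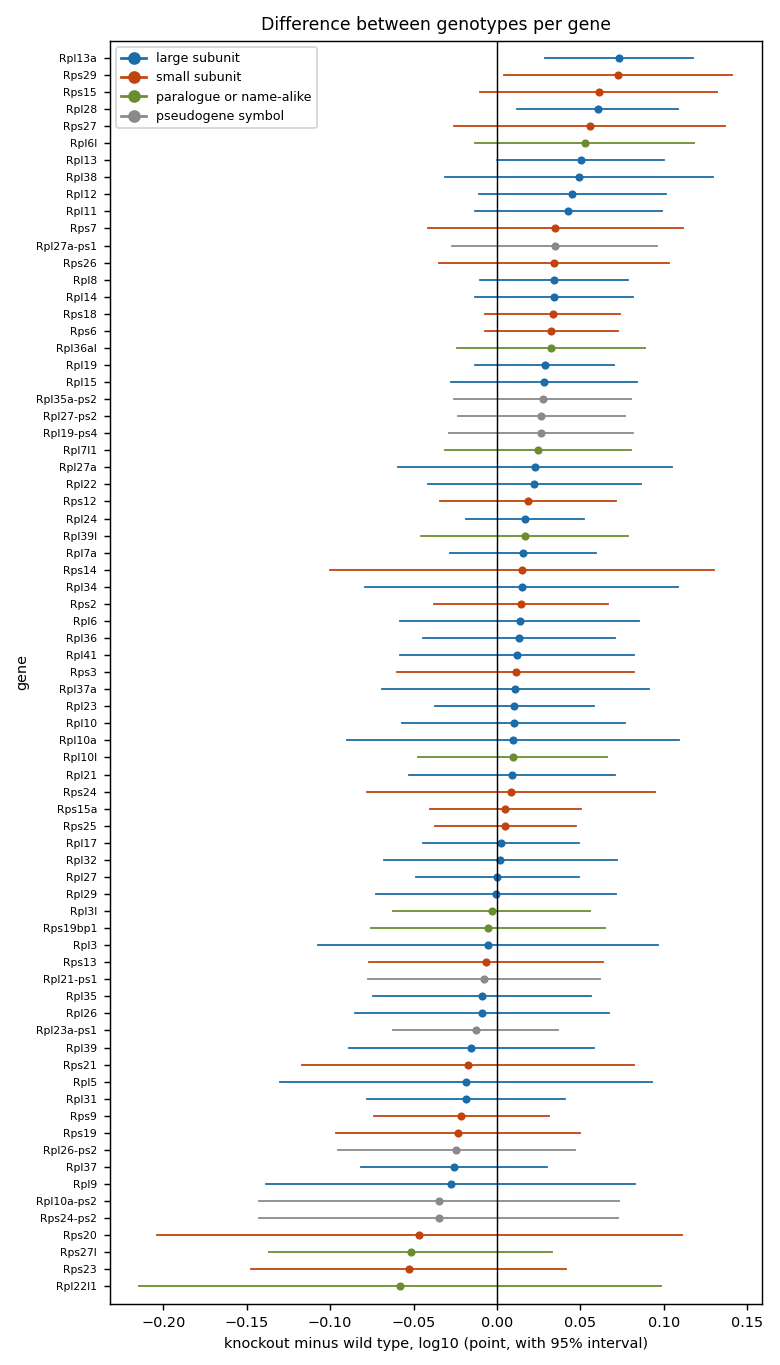
Knockout minus wild type in log10 for each gene (points) with its 95% interval from the limma fit over all rows (lines), from 3 knockouts and 4 wild types. The intervals of Rpl13a, Rps29, Rpl28 and Rpl13 lie above 0 before adjustment, and none passes after it.

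In 7 of the 73 genes, or 9.59%, all 3 knockouts lay above all 4 wild types, where 2.71% of all rows did so. In 0 genes did all knockouts lie below, against 2.56% of all rows. The 7 were Rpl13a, Rps29, Rpl28, Rps18, Rps6, Rpl19 and Rpl24, all standard proteins. Of these, Rpl28, Rps18, Rps6 and Rpl24 are averages of several probes, and each had a probe in which the genotypes overlapped. The count was 5 after median centring and 3 (Rpl19, Rpl28 and Rps29) after quantile or scale normalization, with a background of 2.17%, 2.11% and 2.07%. Dropping 1 mouse cannot make separated groups overlap, so these 7 genes had to stay apart and the count could not fall. The count was 15 without knockout 2, 12 without knockout 4 and 11 without wild type 4, with a background of 4.83%, 7.1% and 7.22%. It stayed at 7 for wild type 3 and for knockout 3, where the background was 6.37% and 7.73%, and the share of the members, 9.59%, lay close to it.

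Rpl13a, a large subunit protein known in human myeloid cells to leave the ribosome and silence inflammatory messages, stood furthest apart. It read 0.0651, 0.0885 and 0.0739 in knockout livers 2, 3 and 4 and 0.0349, -0.0085, 0.0019 and -0.0177 in wild-type livers 1 to 4. All knockouts lay above the highest wild type, liver 1. The difference was 0.0732 ± 0.0190 (SE), or 1.18-fold (limma, adjusted p = 0.884), and its 95% interval spanned 0.0289 to 0.117. Under all alternatives it stayed between 0.0649 and 0.0839, with an adjusted p of at least 0.618.

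Rps29, a small zinc-binding protein of the small subunit, read 0.0956, 0.0420 and 0.0639 in the knockouts and -0.0051, 0.0291, -0.0735 and 0.0276 in the wild types. Wild-type liver 3 was far below the rest, and the knockouts lay above all wild types by a narrow gap. Its difference was 0.0726 ± 0.0293 (SE), or 1.18-fold (adjusted p = 0.884). Rpl28, of the large subunit, read 0.0986, 0.0447 and 0.0344 in the knockouts and -0.0106, -0.00265, 0.0155 and -0.0070 in the wild types. The difference of 0.0604 ± 0.0208 (SE) was 1.15-fold (adjusted p = 0.884). Its 2 probes differed by 0.0955 and 0.0253, so the size rests more on 1 of them, while the direction is the same in both.

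Rps6, the small subunit protein that the S6 kinases phosphorylate, read 0.0279, 0.0281 and 0.0541 in the knockouts. In the wild types it read 0.00795, -0.0042, -0.0077 and 0.0204, all below the lowest knockout. The difference was 0.0326 ± 0.0171 (SE), or 1.08-fold (adjusted p = 0.884). Rps18, a protein of the head of the small subunit often used as a reference gene, differed by 0.0334 ± 0.0174 over 3 probes, which gave 0.0291, 0.0323 and 0.0390. The large subunit genes Rpl19 and Rpl24 differed by 0.0285 ± 0.0178 and 0.0168 ± 0.0152 (SE). Rpl24, whose partial loss gives the belly spot and tail mouse, had the smallest spread within genotypes of all 73 genes, with an SD of 0.0070 in the wild types and 0.0027 in the knockouts. Its gap between genotypes was accordingly small, from 0.00557 in the highest wild type to 0.0141 in the lowest knockout. These values average 3 probes. In a single one of them wild-type liver 1, at 0.0121, lay above all knockouts, of which the highest read 0.0105.

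**Figure D3:**
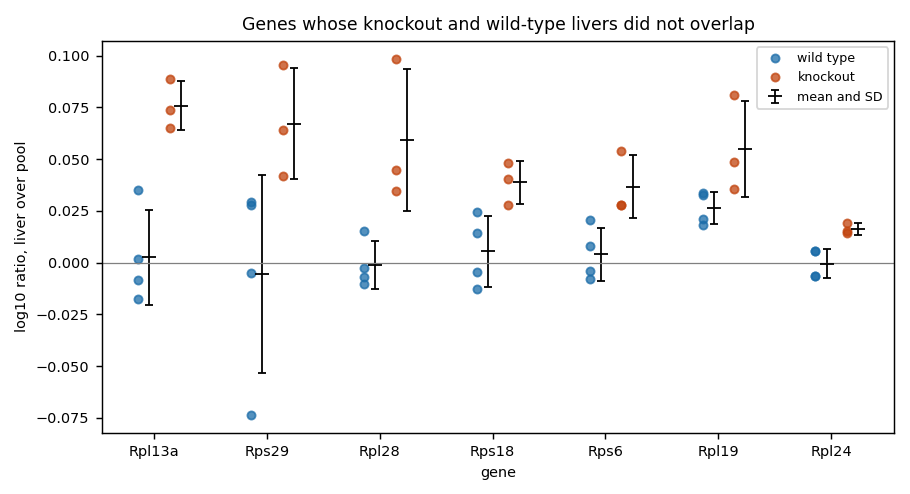
Log10 ratio in each of the 4 wild-type (blue) and 3 knockout (orange) livers for the 7 genes in which the genotypes did not overlap, with the mean and SD beside the points. The shift is largest for Rpl13a, from a mean of 0.00265 to 0.0758, and smallest for Rpl24, from -0.0005 to 0.0163.

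Among genes of the smallest p toward higher values, Rpl13 and Rps15 overlapped between the genotypes. Rpl13, a large subunit protein, differed by 0.0503 ± 0.0215 (SE), and wild-type liver 2 at 0.0426 lay within the knockouts, which ran from 0.0387 to 0.0819. Rps15, whose C-terminal tail reaches the decoding site, differed by 0.0610 ± 0.0305, and wild-type liver 4 at 0.0776 lay within the knockouts, from 0.0357 to 0.1196. Both had an adjusted p of 0.884.

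Each of the 6 genes of smallest p toward lower values had its lowest value of the 7 livers in knockout 2. Rps23, a protein of the decoding centre, read -0.1596 in knockout liver 2 but -0.00355 and -0.0259 in livers 3 and 4, against 0.0336, -0.0125, -0.0596 and -0.00175 in the wild types. Without knockout liver 2 the values of the remaining knockouts lie inside the wild-type range. The difference over all livers was -0.0530 ± 0.0406 (SE; adjusted p = 0.884), and -0.00469 without that liver. The 2 probes of Rps23 parted in that liver, at -0.3038 and -0.0155, while they gave 0.0348 and 0.0324 in wild-type liver 1.

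Rps27l, a relative of Rps27 that p53 induces, read -0.1001, -0.0118 and -0.0861 in the knockouts and 0.0636, -0.0260, -0.0752 and -0.0194 in the wild types. Knockout liver 3 overlapped the wild types, and wild-type liver 3 overlapped the knockouts. Its difference was -0.0518 ± 0.0364 (SE; adjusted p = 0.884). For the remaining 4 genes the differences were -0.0581 for Rpl22l1, -0.0257 for Rpl37, -0.0243 for Rpl26-ps2 and -0.0214 for Rps9. In Rps9, a small subunit protein of the mRNA entry region, knockout liver 2 at -0.0487 was the lowest of the 7 livers, while knockout livers 3 and 4 at 0.0106 and 0.0110 lay within the wild types. None of these 6 genes separated the genotypes.

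The livers differed from each other in the level of the whole set. The mean over the 73 genes was 0.0220, -0.00273, -0.0149 and 0.0116 in wild-type livers 1 to 4. It was -0.0134, 0.0392 and 0.0172 in knockout livers 2 to 4. Wild-type livers 1, 2 and 4 lay between the lowest and the highest knockout, and the groups overlapped. Large and small subunit genes were both highest in knockout 3 and lowest in wild type 3, with means of 0.0453 and 0.0393 in the former and -0.0112 and -0.0287 in the latter. In knockout 2 they were -0.00774 and -0.0213. Which liver was lowest depended on the processing. After median centring the mean of the set was -0.0273 in knockout 2 and -0.0224 in wild type 3. With the less variable genes left out it was -0.0356 and -0.0264. After quantile and scale normalization wild type 3 stayed below knockout 2, at -0.0171 against -0.00755 and -0.0243 against -0.0163.

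Knockout liver 3 was the highest of the 7 livers for 26 of the 73 genes, or 35.6%, while it was the highest for 5.51% of all named genes. It was the lowest liver for 0 of the 73. Wild-type liver 3 was the lowest for 25, or 34.2%, against 11.3% of all named genes. In knockout 3 the ratio lay above 0 for 89.0% of the ribosomal protein genes and 56.3% of all named genes, and in wild type 1 for 82.2% and 51.2%. In wild-type liver 3 the order was turned, with 37.0% and 57.5%. The median difference between the genotypes rests on these livers. It was -0.000117 once knockout 3 was dropped and 0.00453 once wild type 3 was, below the medians over all rows of 0.00717 and 0.00623. Once knockout 2 was dropped it was 0.0246, beside 0.0022 over all rows. It was also 0.0188 when wild type 1 and 0.00707 when wild type 2 was left out, beside 0.00417 and 0.00393.

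Knockout 2 spread the set most widely. It was the lowest liver for 24 of the 73 genes, or 32.9%, against 18.6% of all named genes. It was the highest for 14, or 19.2%, against 29.5%. Its ratio lay above 0 for 50.7% of the set and 58.7% of all named genes. The values ran from -0.226 for Rps20 to 0.135 for Rpl6l. The SD over the set was 0.0787 in that liver and 0.0266 to 0.0395 in the other 6, while over all named genes it was 0.0988 and 0.0488 to 0.0710. The wide spread was thus found over all genes of this array. Its part in the values of single genes was not tested.

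**Figure D4:**
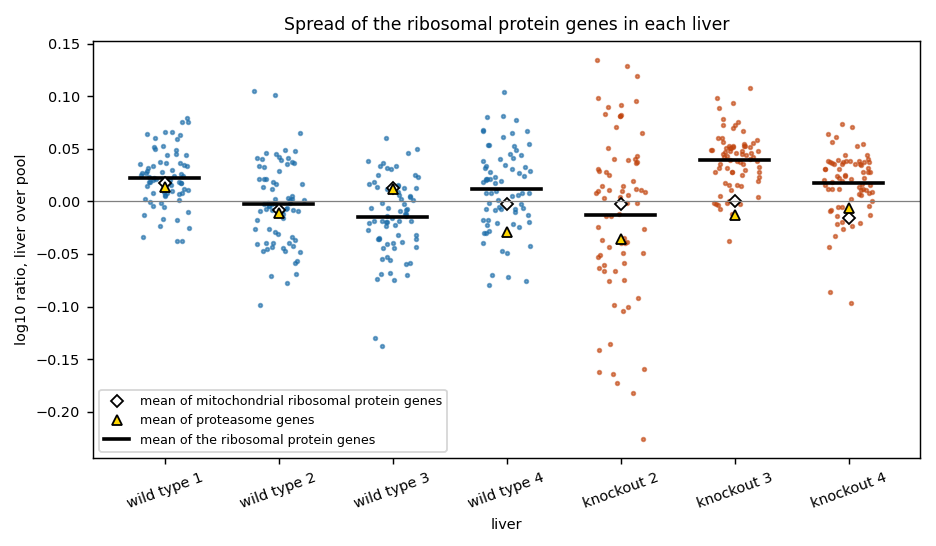
Log10 ratio of the 73 genes in each liver (points, blue for wild type and orange for knockout, spread sideways at random for visibility) with their mean (black bar). The mean of the mitochondrial ribosomal protein genes (diamonds) and of the proteasome genes (triangles) stays at or below 0.0178 in all 7 livers, while the bar reaches 0.0392 in knockout 3.

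The genes with the largest spread within a genotype were Rps20, Rpl22l1, Rps14 and Rpl5. Rps20, a protein of the head of the small subunit, read 0.0797 in wild-type liver 1 and -0.0774, -0.130 and -0.0792 in wild-type livers 2 to 4. In the knockouts it read -0.226, 0.0276 and -0.0966, so that its range within each genotype was wider than the distance between them. Rps14, a small subunit protein lost in the human 5q deletion syndrome, read 0.0170, -0.0988, 0.0054 and -0.0762 in the wild types and -0.136, 0.0381 and 0.0280 in the knockouts. Rpl5, which carries the 5S ribosomal RNA and binds the p53 inhibitor Mdm2, was low in knockout liver 2 in all 3 of its probes, at -0.245, -0.143 and -0.129. In the other 6 livers its averaged values ran from -0.0721 to 0.0213.

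Probes of the same gene gave a further measure of error. Of the 24 genes with more than 1 probe, the probe differences between genotypes were all above 0 in 12, all below 0 in 4 and of both signs in 8. The median range between probes of a gene was 0.0133 in wild-type liver 1, 0.0588 in wild-type liver 4 and 0.0333 in both knockouts 2 and 3. That exceeds many of the differences between genotypes described above. The 3 probes of Rpl38, a protein known in mouse for its part in translating Hox messages, stayed close, at 0.124, 0.134 and 0.130 in knockout liver 2. The 3 probes of Rpl21 did not, at -0.0948, -0.106 and 0.227 in that liver.

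The second question was how far the messages varied together from liver to liver. Over the 2628 pairs of the 73 genes, the median Pearson correlation across the 7 livers was 0.234, beside 0.0131 over all pairs of named genes. Mitochondrial ribosomal protein genes had a median of 0.0834 over 74 genes and proteasome genes one of 0.0185 over 41. Translation factors, with 31 genes, came close to the ribosomal protein genes, with a median of 0.209 and 31.6% of pairs above 0.5. Of the cytosolic pairs 27.1% lay above 0.5 and 8.68% below -0.5, while over all pairs the shares were 17.3% and 15.9%. These correlations describe 7 points each, which share arrays, labelling and normalization, and no test was made of the difference between sets.

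**Figure D5:**
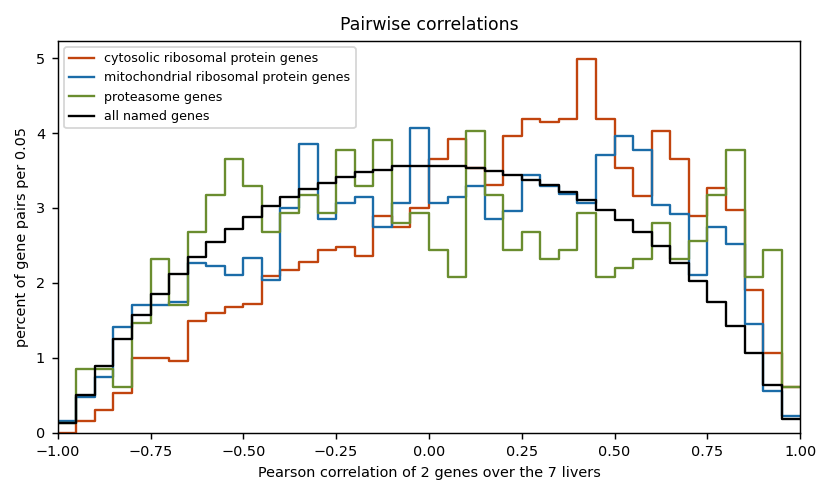
Share of gene pairs (percent, per step of 0.05) by their Pearson correlation over the 7 livers, for the cytosolic ribosomal protein genes, the mitochondrial ribosomal protein genes, the proteasome genes and all named genes. The curve of the cytosolic genes sits to the right of all named genes, with a median of 0.234 against 0.0131, and still covers both signs.

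The co-variation remained within the genotypes. After subtraction of each genotype's mean the median was 0.225, beside 0.285 for the translation factors and 0.0124 over all pairs. Without knockout liver 2 it was 0.302, and without knockout liver 3 it was 0.135. Among the 4 wild-type livers alone it was 0.169, below the 0.204 of the proteasome genes and above the 0.0196 of the translation factors. Across all 7 livers the standard small subunit genes had a median of 0.285 and the standard large subunit genes one of 0.252. After subtraction of the genotype means these were 0.298 and 0.245, and among the 4 wild-type livers 0.32 and 0.101. For 40 of the 73 genes the correlation over 7 livers with the mean of the other members was above 0.5, and for 13 it was below 0.

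The members that followed the others most closely were Rps3 (r = 0.928), Rpl34 (0.898), Rpl32 (0.884) and Rpl37a (0.876), each over 7 livers. Rps3, a protein of the mRNA entry channel with a known role in DNA repair, read 0.0274, -0.0077, -0.0357 and -0.0068 in the wild types and -0.0634, 0.0479 and 0.0321 in the knockouts. It was high in wild-type liver 1 and in knockout livers 3 and 4, and lowest in knockout liver 2. Rpl34 and Rpl37a, both of the large subunit, read 0.0756 and 0.0438 in wild-type liver 1 and -0.0687 and -0.0685 in wild-type liver 3. The members that ran most against the others were Rps25 (r = -0.698), Rpl3l (-0.613), Rpl19-ps4 (-0.445) and Rps2 (-0.430). Rps25, a small subunit protein known for its part in initiation at internal entry sites, was highest in wild-type liver 3 at 0.0319, where most members were low. Rps2 read -0.0469 in wild-type liver 4 and between -0.0051 and 0.0362 elsewhere.

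The start regions of these members, without Rpl32 and Rpl19-ps4, and of Rpl13a are printed to show what the messages that followed the others and those that ran against them carry at their starts. Each line gives 100 bases before and 50 after the start annotated in RefSeq on GRCm38.p6, read along the gene, with the longest run of C and T within 25 bases of the start in capitals.
Rpl13a, chr7:45128696-45128845, minus strand: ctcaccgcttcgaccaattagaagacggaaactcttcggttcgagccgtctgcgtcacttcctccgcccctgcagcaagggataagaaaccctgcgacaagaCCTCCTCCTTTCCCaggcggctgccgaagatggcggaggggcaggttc
Rps3, chr7:99483660-99483809, minus strand: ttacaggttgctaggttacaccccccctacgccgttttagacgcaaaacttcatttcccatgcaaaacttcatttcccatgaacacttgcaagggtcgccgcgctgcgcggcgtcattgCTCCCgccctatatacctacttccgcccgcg
Rpl34, chr3:130730349-130730498, minus strand: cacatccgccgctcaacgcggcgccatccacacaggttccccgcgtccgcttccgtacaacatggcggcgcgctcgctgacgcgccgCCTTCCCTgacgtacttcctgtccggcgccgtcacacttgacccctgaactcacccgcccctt
Rpl37a, chr1:72711160-72711309, plus strand: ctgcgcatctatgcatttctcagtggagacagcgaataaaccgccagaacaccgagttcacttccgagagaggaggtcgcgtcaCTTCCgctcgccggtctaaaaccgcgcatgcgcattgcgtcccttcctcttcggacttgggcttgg
Rps25, chr9:44407614-44407763, plus strand: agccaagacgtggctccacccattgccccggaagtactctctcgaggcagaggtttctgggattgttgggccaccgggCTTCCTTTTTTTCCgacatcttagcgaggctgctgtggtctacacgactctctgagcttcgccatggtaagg
Rps2, chr17:24719963-24720112, plus strand: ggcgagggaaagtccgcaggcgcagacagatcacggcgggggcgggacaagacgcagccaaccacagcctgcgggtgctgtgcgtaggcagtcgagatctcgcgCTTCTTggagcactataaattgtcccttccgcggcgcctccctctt
Rpl3l, chr17:24727726-24727875, plus strand: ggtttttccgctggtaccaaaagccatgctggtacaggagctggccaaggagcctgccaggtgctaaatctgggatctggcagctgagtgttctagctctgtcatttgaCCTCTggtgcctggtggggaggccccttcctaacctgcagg

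Of the 73 genes, 53 had a promoter in the RefSeq table, and the first start listed was used. A pyrimidine run of at least 8 bases lay within 25 bases of the start in 49.1% of them, and in 19.4% of all 27025 promoters. The run was 14 bases long in Rpl13a and Rps25, 8 in Rpl34, 6 in Rps2, and 5 in Rps3, Rpl37a and Rpl3l. Runs were counted only up to the limit of 25 bases. In Rpl37a a longer run of C and T crosses that limit, and in Rps2 longer runs lie past it. An annotated start can also miss the true one, so the lengths hold for the annotated starts only. In the 300 bases from 250 before to 50 after the start, searched on both strands, CCGGAAG, the core of the ETS factor motif, was present in 39.6% of the members and 9.12% of all promoters. The YY1 core AAGATGGC was present in 7.55% and 2.88%, and the pyrimidine word CTTTCC in 45.3% and 26.3%. The SP core GGGCGG was present in 56.6% and 35.9%, the E-box CACGTG in 9.43% and 7.24%, and TATAAA in 5.66% and 14.2%. CTTTCC shared bases with GGGCGG in 1 member and with AAGATGGC in 1. The printed window of Rpl13a holds AAGATGGC after its pyrimidine run, the window of Rps25 holds CCGGAAG, and that of Rps2 holds TATAAA after the start. These matches are descriptions and are not known to be bound here.

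By class, the difference was above 0 in 26 of 35 large subunit genes, with a median of 0.0121, and in 14 of 20 small subunit genes, with a median of 0.0129. It was above 0 in 5 of 9 paralogues and name-alikes (median 0.00937) and in 4 of 9 pseudogene symbols (median -0.0078). The paralogue pairs varied in how far both genes went together. Rpl10, which joins the large subunit late in its assembly, and Rpl10l, its retrocopy known from the testis, had r = 0.971 over 7 livers. Rpl10 read 0.0009, 0.0390, -0.0184 and 0.0808 in the wild types and Rpl10l 0.0024, 0.0369, -0.0161 and 0.0652. In the knockouts they read 0.0098, 0.0727 and 0.0241, and 0.0075, 0.0516 and 0.0353, so that livers 3 and 4 set them further apart than the genotypes did. Near-identical copies can share signal on an array, so a level of Rpl10l of its own is uncertain. Rpl3, at the peptidyl transferase centre, and Rpl3l, its muscle form, had r = -0.418. For Rpl39 and Rpl39l, the latter known from the testis, r was -0.506, and for Rps27 and Rps27l it was 0.322. For Rpl22 and Rpl22l1, which is known to be held down by Rpl22, r was -0.0169, and for Rpl6 and Rpl6l it was -0.362.

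None of the paralogues passed the test. Rpl22l1 ranged most widely, at 0.0664, 0.101, -0.138 and 0.0449 in the wild types and -0.142, 0.0673 and -0.0437 in the knockouts. Its lowest livers were wild-type 3 and knockout 2. Rpl22 read 0.0589, -0.0439, -0.0144 and 0.0332 in the wild types and 0.0431, 0.0376 and 0.0115 in the knockouts. Among the 7 pseudogene symbols whose parent gene was also measured, the correlation with the parent was highest for Rpl27a-ps1 (0.906) and lowest for Rpl27-ps2 (0.275). Those probes too may read the parent message, which was not tested.

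Of the members, Rpl32 alone is encoded on chromosome 6, within 10 Mb of C3ar1 in the GRCm38.p6 annotation. Its difference was 0.0020 ± 0.0300 (SE; adjusted p = 0.991), with values of 0.0493, -0.0397, -0.0194 and 0.0179 in the wild types and -0.0398, 0.0517 and 0.00005 in the knockouts. The genotypes overlapped over nearly their whole range. The 73 genes are spread over 19 chromosomes.

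Cytosolic ribosomal proteins whose symbols fall outside the naming rule were measured for 4 genes, and none passed. The difference was 0.0516 ± 0.0330 (SE) for Fau, which encodes eS30 fused to a ubiquitin-like protein, 0.0461 ± 0.0417 for Rpsa, the laminin receptor protein of the small subunit, and 0.0248 ± 0.0252 for the stalk protein gene Rplp2. Fau read 0.143 in knockout liver 2 and 0.0041 in knockout liver 4, and so overlapped the wild types. With these genes included the median difference was 0.0121.

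Genes that act around the ribosome were counted in the same fit. Of 50 measured genes of ribosome assembly and RNA polymerase I, 0 passed in either direction, 37 had a difference above 0, and the median was 0.0232. Like that of the ribosomal protein genes, their mean ratio was highest in knockout liver 3, at 0.0354. In that liver 41 of the 50 lay above 0, beside 56.3% of all named genes. Their lowest mean was, however, in wild-type liver 4, at -0.00098. Their median ratio was highest in knockout liver 2, at 0.0384, against 0.0312 in knockout liver 3. Heatr1, needed for transcription of ribosomal DNA, read 0.0825, 0.0695 and 0.0794 in the knockouts against -0.0449 to 0.0378 in the wild types, a difference of 0.0799 ± 0.0229 (SE; adjusted p = 0.884). The polymerase subunit gene Polr1b and the snoRNP gene Nop56 differed by 0.102 ± 0.0363 and 0.0748 ± 0.0272, also without overlap and without passing. The kinase gene Riok2, of small subunit maturation, differed by -0.103 ± 0.0461, with all knockouts below all wild types by a gap from 0.0167 to 0.0169.

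Of 31 translation factors and related messages, several of which carry the same pyrimidine start, 0 passed, 14 had a difference above 0, and the median was -0.0133. The initiation factor gene Eif3c differed by 0.0579 ± 0.0239 (SE), Eif4a2, a helicase of initiation, by -0.112 ± 0.0467, and Nap1l1, a histone chaperone, by -0.114 ± 0.0509. Of 24 genes of the S6 kinases, mTORC1 and other regulators, 0 passed, 16 had a difference above 0, and the median was 0.0189. Rps6ka5, the kinase Msk1, read -0.153, -0.0927 and -0.177 in the knockouts and 0.0070, -0.0135, 0.0869 and -0.0286 in the wild types. All knockouts lay below all wild types, and the difference was -0.154 ± 0.0334 (SE), or 1.43-fold (adjusted p = 0.884). Rheb, the GTPase that activates mTORC1, differed by -0.118 ± 0.0491, and Larp1, which binds the pyrimidine start, by 0.0457 ± 0.0293.

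Markers of liver cell types are given beside the level of the set. The mean of 13 hepatocyte genes was highest in knockout liver 3, at 0.0779, and lowest in wild-type liver 3, at -0.0504. On the deposited values the ribosomal protein genes were also highest and lowest in these livers. The hepatocyte mean was, however, -0.0354 in wild type 1, where those genes read 0.0220. It ran from -0.0504 to 0.0519 in the wild types and from 0.00174 to 0.0779 in the knockouts, and 11 of 13 differences were above 0. The mean of 12 Kupffer cell genes ran from -0.233 in wild-type liver 3 to -0.0611 in wild-type liver 4. In knockout livers 2, 3 and 4 it was -0.0968, -0.15 and 0.118, so that only knockout 4 lay outside the wild types. All 12 of the Kupffer cell differences were above 0, beside 57.2% of all rows. Differences above 0 were found in 10 of 12 endothelial, 8 of 10 stellate, 11 of 12 lymphocyte, 5 of 10 neutrophil and erythroid and 3 of 6 bile duct genes. All knockouts lay above all wild types in 4 of 12 endothelial, 2 of 12 lymphocyte, 1 of 12 Kupffer cell and 1 of 10 blood cell genes and in 0 of the hepatocyte, stellate and bile duct genes, where 2.71% of all rows did so. Of all these marker genes 0 passed (limma, smallest adjusted p = 0.884). The means of the endothelial, stellate, lymphocyte and blood cell lists were highest in knockout liver 4, at 0.0420, 0.0337, 0.0251 and 0.0247, and that of the bile duct list in wild-type liver 2, at 0.237. The bile duct mean rests on Dmbt1, a secreted mucosal protein gene, which read 0.684 in that liver and -1.25 to -1.40 in the other 6. In wild type 3 and knockout 3 respectively, these 5 lists read -0.0595 and -0.0224, -0.0833 and -0.0151, -0.0304 and -0.0292, -0.0399 and -0.0909, and -0.252 and -0.248. The medians of the bile duct list in those livers were -0.0441 and -0.0546. The part of cell composition in the level of the ribosomal protein genes was not tested.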

How the data were processed

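The authors deposited log ratios of 7 arrays in 2 colours, each of 1 liver against the pool, read here as log10 values although the base is not stated. Liver RNA was purified on columns with DNase, amplified and dyed with Cy3 or Cy5, per the labels' protocols. The design text mentions a dye swap. Whether a column merges both orientations, the scanner software and the normalization are not given in the sources used here. As deposited, column medians ran from -0.0008 to 0.0139. Over all rows, the lowest correlation between 2 arrays was -0.243.

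Gene symbols came from the platform annotation, brought up to date with GRCm38.p6 (17724 by Entrez number, 21 by accession, 79 unchanged). Of 23574 probes, 17824 had 1 symbol, 50 several and 5700 no listed gene. Probes with several symbols name no gene, and 10 of them that list a ribosomal protein gene were left out. Probes of a symbol were averaged, the others kept singly, and the 22212 rows were fitted in R 4.3.3 with the package limma, version 3.58.1 (lmFit, then eBayes, knockout minus wild type, two-sided, Benjamini-Hochberg over all rows, threshold 0.05). Every adjusted p is from this fit. The table had 0 unused value columns. The members and lists were chosen with earlier results of these data known, so lists are given as counts and medians with no p. The named members were, in each direction, the 6 of smallest p, those without overlap, the 4 of largest spread, the 4 highest and 4 lowest by correlation with the other members, paralogue pairs, Rps6 and chromosome 6 genes. For each other list up to 3 genes of smallest p in each direction could be named. The lists were ribosomal proteins outside the rule, translation factors, ribosome assembly, regulators and 7 marker lists. Rpl38, Rpl21 and Rpl6l outside its pair were named after their values were seen. The fit was tested on simulated data. The alternatives were 3 normalizations, a filter on variation, single probes, a replicate block, array weights, robust and ordinary tests, other member sets and each mouse left out. Intensities were not analysed here, so no filter on dim probes could be made.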

Additional observations from a re-analysis of the deposited data

Results flagged for a closer look

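Among the 4 wild-type livers, a value far from the rest was looked for by Dixon's gap ratio, the gap of the extreme liver over the whole range, against its 95% limit for 4 samples. The 35 named members, the means of all members and of both subunits, the means of the other gene lists, the genes chosen from those lists, C3ar1, Rpl38 and Rpl21 made 121 groups of values, of which 9 passed. Chance passes about 1 in 20 groups. No cytosolic ribosomal protein gene and none of the 3 means over them was among the 9.

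The mean of the translation factors was 0.012 in wild-type liver 1 and -0.00835 to -0.00801 in the other wild types (ratio 0.984). The mean of the regulators was 0.0215 in wild-type liver 2 and -0.00936 to -0.00477 in the others (0.852). In the same liver the bile duct markers stood apart, with a list mean of 0.237 against -0.262 to -0.214 (0.905), and so did 3 of its genes. Dmbt1 read 0.684 there (0.965), Epcam, a surface protein of epithelia, 0.184 (0.918), and Cftr, the chloride channel, 0.123 (0.857). Wild-type liver 3 was highest for Riok2, at 0.0516 (0.882), and lowest for the collagen gene Col3a1, at -0.0106 (0.931). Wild-type liver 1 was highest for Mrps25, a mitochondrial ribosomal protein gene, at 0.0756 (0.885). The groups of 3 knockouts are too small for this measure.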

How the results depend on the processing

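No ribosomal protein gene was called under any alternative, in which the smallest adjusted p ranged from 0.618 with array weights to 1.0. At an unadjusted p under 0.05 there were 8 with array weights, 0 with the less variable genes left out and 1 with the block, against 4. Every gene so listed was higher in the knockouts. The shares of all rows listed as higher were 2.87%, 1.39% and 0.959%, against 1.89%, and in either direction 5.99%, 4.69% and 2.35%. The array weights were 3.22 for knockout 3, 0.4385 for knockout 2 and 0.68 to 1.167 for the other livers. The weighted fit thus leans most on knockout 3, the liver in which the set was highest. There were 2 after each of the 3 normalizations, where 1.35% to 1.54% of all rows were listed as higher. With 1 mouse left out there were 1 to 5, beside 1.15% to 2.86% of all rows. There was 1 when wild type 1 or knockout 2 was dropped and there were 2 when wild type 3 was. The median difference lay between -0.000117 (without knockout liver 3) and 0.0246 (without knockout liver 2) when 1 mouse was left out. Under the other alternatives it lay between 0.00657 and 0.026, the latter with array weights. The median over all rows was 0.00558, and 0.000697 to 0.00281 after median centring, quantile or scale normalization. With 1 mouse left out it was 0.0022 to 0.00717. The median pairwise correlation lay between 0.135 and 0.302 with 1 mouse left out, and between 0.189 and 0.407 otherwise. The mean of the set in knockout liver 2 was -0.0356 with the less variable genes left out, a filter that keeps 42 of the 73 genes, and -0.0134 without it. The count of genes with all knockouts above all wild types was 3 after quantile normalization and 3 after scale normalization, against 7, and with 1 mouse left out it ranged from 7 to 15. With the less variable genes left out it was 3 of 42, or 7.14%, against 2.21% of the rows kept. That filter changes no value, so Rpl19, Rpl24, Rps18 and Rps6 were missing only because it removed them. With 1 mouse left out the 7 genes had to be shared, because removal of a liver cannot create overlap. After each normalization and the filter only the smaller count was shared. These counts and the set of 55 standard proteins were added after seeing the data. Of the 35 named members, 17 turned sign under at least 1 alternative and 18 kept it, and 0 were called.

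The replicate numbers do not pair the mice by any label. The correlation of deviations from the group means was -0.131, -0.207 and -0.15 for knockouts and wild types numbered 2, 3 and 4. With the replicate block 0 members were called, and the median difference was 0.0188 and the median correlation 0.407. No knockout carries number 1, so under the block wild type 1 takes no part in the difference. The median difference is therefore the same as with that mouse left out, and the block is no separate check of it. Over all rows the block took the calls from 1 to 0. Signal over background was not analysed here and limits what can be said of weak probes.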
